A study of Homo sapiens with 6 samples.

Results

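The histone deacetylase genes described here are HDAC1, HDAC2, HDAC3, HDAC4, HDAC5, HDAC7, HDAC9, HDAC10 and HDAC11, 9 of 19974 protein-coding genes of the RefSeq annotation. Their H3K27ac peaks were taken from 3 deposited peak lists, for the gene body and 25 kb on each side (the window of a gene), and a stretch of 230 kb at HDAC4 was read peak by peak. H3K27ac, acetylation of a lysine of histone H3, marks active promoters and enhancers. The genes were chosen by their H3K27ac peaks, with earlier results of these lists known and the peaks at HDAC4 among them, so all values below are descriptions and carry no test.

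The lists come from Jurkat cells (2 libraries, replicates 1 and 2) and 6T-CEM cells (1 library), both lines of human T-cell acute lymphoblastic leukaemia, a cancer of immature T cells. Of the 6 samples, the 3 with IgG were left aside. GNE-987, an inhibitor of BET bromodomain proteins, is named in the title of the series, and a dose (10 nM) and a time (24 h) in its description. Since the sample labels mention neither, each library may come from treated or untreated cells. Nothing in the labels says whether the Jurkat replicates are separate cultures, and with 1 library of 6T-CEM its own spread is unknown. The difference between the Jurkat replicates is therefore given beside each difference between the lines. Peak names begin with Jur in the list of replicate 1 and with Jur-NE in that of replicate 2, and no source used here says what the names mean, so the difference between these lists may hold more than replicate spread.

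Histone deacetylases remove acetyl groups from lysines of histones and other proteins. The class I enzymes HDAC1, HDAC2 and HDAC3 work in the nucleus as catalytic subunits of corepressor complexes. The class IIa proteins HDAC4, HDAC5, HDAC7 and HDAC9 have weak catalytic activity of their own, bind MEF2 transcription factors, and move between nucleus and cytoplasm under the control of kinases and 14-3-3 proteins. HDAC7 is known for its role in developing T cells, HDAC10 is a class IIb enzyme that deacetylates polyamines, and HDAC11 is the class IV enzyme, which removes long fatty acyl groups.

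The lists differ in length, which bears on every count below. Jurkat replicate 1 had 16159 peaks, Jurkat replicate 2 had 32097 and 6T-CEM had 35154, covering 16.2 Mb, 27.6 Mb and 34.3 Mb of the chromosomes 1 to 22 and X. The windows of the 9 genes held 101, 186 and 133 of these peaks. Just inside their edge, 20 to 25 kb from a gene, lay 1, 4 and 4 peaks, and just outside, 25 to 30 kb away, lay 0, 9 and 3. Of the 6 T-cell marker genes with a listed start, 5 had a peak within 1 kb of it in each library (BCL11B lacked one in both Jurkat libraries and CD2 in 6T-CEM), and no B-cell, myeloid, erythroid or epithelial marker with a listed start had one in any library.

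The promoter sequences on which the results turn are shown first. They are from RefSeq (GRCh38.p14, the build of the peak lists) and run from 250 bases before to 50 bases after a listed transcription start, read 5′ to 3′ on the strand of the gene. A listed start was found for 8 of the 9 genes, all but HDAC5. Capitals mark the letters searched on both strands, with overlapping matches shown as a single run: the GC box GGGCGG, the box named CCAAT, the ETS letters CCGGAAG, the E-box letters CAGCTG and also CAGGTG, the GATA letters AGATAA and the RUNX letters TGTGGT. The NRF1 motif was also searched and was in none of the promoters of these genes, and in 1.23% of listed promoters. HDAC2 is shown because its promoter held the only peak of its window, and HDAC7 because its start lay under a peak of several kb in 6T-CEM. HDAC4 is shown at its most upstream start and at internal starts 127 kb and 134 kb downstream of it, which lay under wide peaks. HDAC9 (its most upstream start) and HDAC11 are shown because no library had a peak within 1 kb of these starts.
HDAC2, chr6:113971099-113971398, minus strand: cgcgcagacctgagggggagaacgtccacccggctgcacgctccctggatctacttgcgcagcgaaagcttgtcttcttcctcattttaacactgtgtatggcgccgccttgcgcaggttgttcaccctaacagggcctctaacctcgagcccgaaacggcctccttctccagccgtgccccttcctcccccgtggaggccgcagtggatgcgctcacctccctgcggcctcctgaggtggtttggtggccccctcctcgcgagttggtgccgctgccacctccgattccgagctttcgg
HDAC7, chr12:47819854-47820153, minus strand: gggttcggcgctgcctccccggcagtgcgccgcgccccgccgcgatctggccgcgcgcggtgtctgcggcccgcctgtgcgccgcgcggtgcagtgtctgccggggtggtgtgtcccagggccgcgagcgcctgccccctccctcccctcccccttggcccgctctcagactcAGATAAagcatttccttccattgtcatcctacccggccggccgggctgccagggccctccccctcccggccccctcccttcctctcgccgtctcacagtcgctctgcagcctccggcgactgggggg
HDAC4 most upstream start, chr2:239401600-239401899, minus strand: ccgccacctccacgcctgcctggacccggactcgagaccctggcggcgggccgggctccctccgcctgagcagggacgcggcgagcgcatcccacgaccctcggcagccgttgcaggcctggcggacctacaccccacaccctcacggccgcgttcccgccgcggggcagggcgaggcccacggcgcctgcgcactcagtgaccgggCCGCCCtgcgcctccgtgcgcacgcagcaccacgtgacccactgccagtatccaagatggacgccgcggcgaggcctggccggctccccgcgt
HDAC4 internal start at 127 kb, chr2:239274732-239275031, minus strand: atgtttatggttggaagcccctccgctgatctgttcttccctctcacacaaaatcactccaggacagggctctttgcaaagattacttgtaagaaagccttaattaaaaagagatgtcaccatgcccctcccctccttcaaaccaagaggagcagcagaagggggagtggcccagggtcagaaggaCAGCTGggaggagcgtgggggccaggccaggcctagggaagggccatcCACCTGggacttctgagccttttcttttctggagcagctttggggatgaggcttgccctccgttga
HDAC4 internal start at 134 kb, chr2:239267465-239267764, minus strand: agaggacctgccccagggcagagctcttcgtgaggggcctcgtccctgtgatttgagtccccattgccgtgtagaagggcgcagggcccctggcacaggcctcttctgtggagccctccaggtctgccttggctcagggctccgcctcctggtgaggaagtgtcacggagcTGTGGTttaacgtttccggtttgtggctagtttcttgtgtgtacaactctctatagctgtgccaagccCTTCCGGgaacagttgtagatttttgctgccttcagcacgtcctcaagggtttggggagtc
HDAC9, chr7:18086575-18086874, plus strand: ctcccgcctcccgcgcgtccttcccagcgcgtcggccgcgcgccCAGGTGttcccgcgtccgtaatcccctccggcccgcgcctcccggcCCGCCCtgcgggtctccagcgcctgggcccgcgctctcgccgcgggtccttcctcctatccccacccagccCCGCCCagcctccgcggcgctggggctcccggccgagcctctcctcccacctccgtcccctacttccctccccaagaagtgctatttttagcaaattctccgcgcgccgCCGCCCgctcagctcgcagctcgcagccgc
HDAC11, chr3:13480056-13480355, plus strand: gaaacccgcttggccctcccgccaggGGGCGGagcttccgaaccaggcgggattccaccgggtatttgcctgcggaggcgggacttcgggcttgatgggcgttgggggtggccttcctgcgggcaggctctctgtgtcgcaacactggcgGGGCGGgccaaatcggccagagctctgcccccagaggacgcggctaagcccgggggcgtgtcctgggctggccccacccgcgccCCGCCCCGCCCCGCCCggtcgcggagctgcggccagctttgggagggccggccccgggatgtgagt

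These stretches differed in composition and in the letters searched. G and C made up 76.3% of the most upstream HDAC4 promoter, 74.7% of that of HDAC7 and 73.7% of that of HDAC11, against a median of 58.7% over 34789 listed promoters. The internal HDAC4 starts had 54.3% and 58.3%. GC box letters occurred 5 times at HDAC11, 3 times at HDAC9, once at the most upstream HDAC4 start, and not at HDAC2, HDAC7 or the internal HDAC4 starts shown. GC box letters are in 44.9% of all listed promoters. The internal HDAC4 start at 127 kb held CAGCTG and CAGGTG, which are in 17.9% and 20.6% of listed promoters, and that at 134 kb held the ETS and RUNX letters, which are in 10.2% and 13.1%. The HDAC7 promoter held AGATAA, as do 10.4% of listed promoters, and the HDAC2 promoter held none of the letters searched. The GC box letters were thus found both at promoters with a peak and at promoters without.

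Across the 9 genes, the bases under peaks in the window ranged from 0 at HDAC9 to 139615 at HDAC4. Covered bases were present at 8 of the 9 genes in each Jurkat library and at 7 in 6T-CEM, and at 7 in all 3 libraries. Over all protein-coding genes the shares were 57.2%, 58.6% and 64.5%, and 47.3% in all 3. In 6T-CEM 3 genes had more covered bases than in either Jurkat library (HDAC1, HDAC7 and HDAC10), 3 had fewer (HDAC3, HDAC4 and HDAC11), 2 lay within the Jurkat range (HDAC2 and HDAC5), and HDAC9 had none. Of all 14432 protein-coding genes with covered bases in any library, 50.5% were above and 15.8% below both Jurkat libraries in 6T-CEM, and 27.7% of all protein-coding genes had no covered base in any library. Counting only peaks over a gene or nearer to it than to any other protein-coding gene, HDAC1 and HDAC7 were above (2 of 9). HDAC4 and HDAC11 were below (2 of 9), and HDAC9 had no covered base. Of the 12112 protein-coding genes with covered bases by this count, 48.5% were above and 16.1% below. HDAC3 and HDAC10 then fell within the Jurkat range. The log2 ratios below compare 6T-CEM with the Jurkat mean after 500 bases were added to each value. Over all genes with covered bases the median of this ratio was 0.31, and the median of Jurkat replicate 1 over replicate 2 was -0.08.

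**Figure D1:**
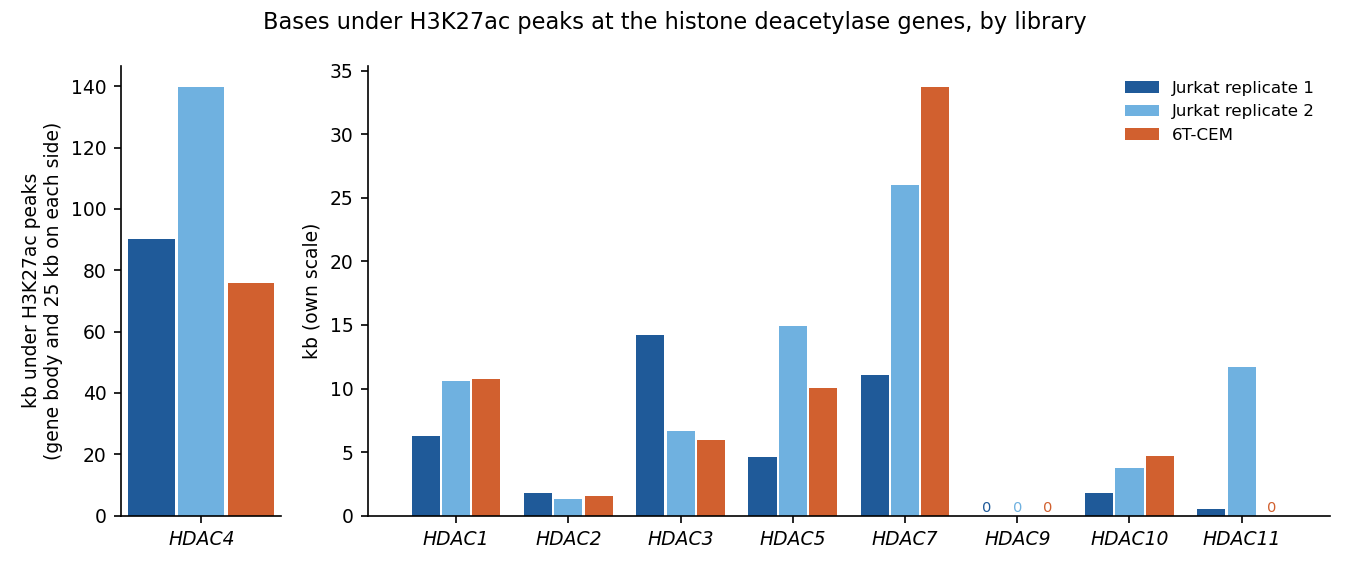
Bases under H3K27ac peaks (kb, vertical axis) in the gene body and 25 kb on each side of each histone deacetylase gene, 1 bar per library, with HDAC4 on a scale of its own. HDAC4 is lowest in 6T-CEM (75733 bases), HDAC7 is highest there (33683 bases), and HDAC9 has no covered base in any library.

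A peak lay within 1 kb of a listed start of 5 of 8 genes in Jurkat replicate 1, 5 of 8 in Jurkat replicate 2 and 6 of 8 in 6T-CEM. The same held for 41.0%, 34.6% and 42.9% of 15812 genes with a listed start. HDAC1, HDAC2, HDAC4 and HDAC7 had such a peak in all 3 libraries (4 of 8 genes, and 28.1% of all genes). HDAC3 lacked one in Jurkat replicate 2, HDAC10 lacked one in Jurkat replicate 1, and HDAC9 and HDAC11 lacked one throughout.

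Of the class I genes, HDAC1 and HDAC2, which share the Sin3, NuRD and CoREST complexes, had a start peak in every library. Peak height is the authors' fold enrichment over the peak caller's background. HDAC1 (chr1:32292083-32333626) had a peak over its start with a fold of 4.26 and a width of 1496 bases in Jurkat replicate 1, 4.48 and 512 bases in Jurkat replicate 2, and 5.23 and 1138 bases in 6T-CEM. These folds stood at the percentiles 25.4, 53.8 and 61.7 of their lists. The HDAC1 window held 6286, 10613 and 10785 covered bases, in that order of libraries, a log2 ratio of 0.33 where the Jurkat replicates differed by -0.71. The 6T-CEM value thus lay just above the higher Jurkat value. Most of these bases belonged to a neighbour: 4222, 6637 and 6562 of them lay over LCK, which encodes a kinase of T-cell receptor signalling. The body of HDAC1 itself held 886, 1924 and 1687 covered bases. A peak 29768 bases into the gene, over chr1:32321851-32322570, was called in 6T-CEM (fold 5.27) and in Jurkat replicate 2 (fold 4.47) but not in Jurkat replicate 1.

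HDAC2 (chr6:113933028-113971148) had 1 peak in its window in each library, over the promoter shown above. The peak was 1793 bases wide with a fold of 5.25 in Jurkat replicate 1, 1330 bases with 3.12 in Jurkat replicate 2, and 1538 bases with 3.08 in 6T-CEM. By width 6T-CEM lay between the Jurkat replicates, and by fold it lay beside replicate 2. These folds stood at the percentiles 52.1, 15.0 and 12.2 of their lists. The peak was isolated: the nearest other peak was 1850 kb, 2170 kb and 2060 kb from the gene.

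HDAC3 (chr5:141620881-141636849), the catalytic subunit of nuclear receptor corepressor complexes, had covered bases of 14218, 6651 and 5960 in its window, with a log2 ratio of -0.76 and a Jurkat replicate difference of 1.04. Most lay over the neighbouring DIAPH1, a formin of actin assembly, with 12547, 6309 and 4550 bases. At the start of HDAC3 the peak of Jurkat replicate 1 had a fold of 3.99 and a width of 1443 bases and reached into the adjoining RELL2. In 6T-CEM a peak of 364 bases with a fold of 3.20 began 72 bases downstream of the start. Jurkat replicate 2 had no peak over HDAC3. With peaks over HDAC3 or nearer to it than to any other gene, the values were 1443, 0 and 878 bases. By that count 6T-CEM lay between the Jurkat replicates. Within the gene body the covered bases were 714, 0 and 878, so there 6T-CEM was above both.

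Of the class IIa genes, HDAC4 was covered by peaks along much of its upstream part, HDAC7 along its body in Jurkat replicate 2 and 6T-CEM, HDAC5 in part, and HDAC9 not at all. HDAC4 (chr2:239048168-239401649, minus strand) had 68, 111 and 73 peaks in its window, which covered 90175, 139615 and 75733 bases, or 22.3%, 34.6% and 18.8% of it. By covered bases HDAC4 ranked 2, 1 and 15 among all protein-coding genes. These ranks use summed bases, and the HDAC4 window is 403 kb long. By share of the window HDAC7 was lower than HDAC4 in the Jurkat libraries (12.5% and 29.4%) and higher in 6T-CEM (38.0%). The log2 ratio was -0.60 and the Jurkat replicate difference -0.63, and 6T-CEM was below both Jurkat libraries. With the 16159 top peaks of each list the values were -1.19 and -0.46.

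The cluster at chr2:239180000-239410000 held nearly all of this, with 67, 85 and 68 peaks over 89776, 121924 and 71193 bases. These are 39.0%, 53.0% and 31.0% of the cluster. With the 16159 top peaks of each list the cluster held 67, 71 and 28 peaks. The median width in the cluster was 725 bases in Jurkat replicate 1, 816 in Jurkat replicate 2 and 655 in 6T-CEM, and the median fold was 5.42, 5.27 and 4.37. Over the whole lists the median widths were 762, 583 and 647 bases and the median folds 5.17, 4.33 and 4.65. Jurkat replicate 1 had 6 peaks of 3 kb or more, Jurkat replicate 2 had 11 and 6T-CEM had 4, the widest being 7825, 8877 and 5278 bases. The highest fold was 12.5, 13.2 and 8.78. For covered bases of the cluster the log2 ratio was -0.57, and between the Jurkat replicates the difference was -0.44. The cluster held 0.554%, 0.441% and 0.208% of all bases covered in the respective list.

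The cluster had plain borders in Jurkat replicate 1 and 6T-CEM. The outermost peaks inside it began at 239194597, 239183484 and 239181022 and ended at 239402213, 239407011 and 239402192. Beyond the upstream border the next peak started at 239545026 in Jurkat replicate 1, at 239424679 in Jurkat replicate 2 and at 239545323 in 6T-CEM. Beyond the downstream border the next peak ended at 239146670, 239169846 and 239151807. In the 132 kb from the cluster to the downstream end of HDAC4, Jurkat replicate 1 had 1 peak, Jurkat replicate 2 had 23 and 6T-CEM had 5, covering 0.303%, 12.4% and 3.44%. Peaks in this downstream part were thus mainly those of Jurkat replicate 2.

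**Figure D2:**
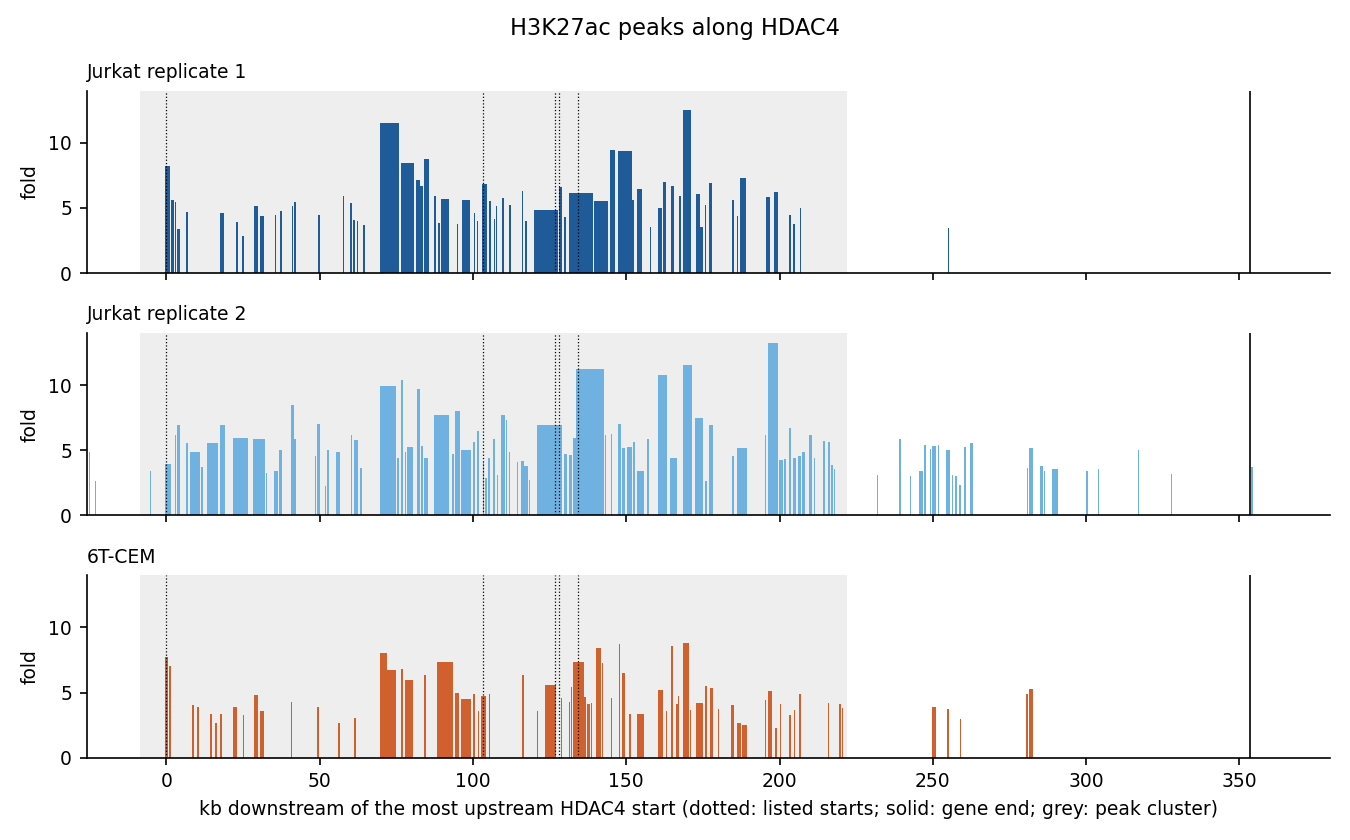
Every peak in the HDAC4 window, 1 track per library. The horizontal axis is the distance in kb downstream of the most upstream start, bar width is peak width and bar height is the authors' fold. Peaks cover 39.0%, 53.0% and 31.0% of the grey cluster, the widest in 6T-CEM is 5278 bases against 7825 and 8877 in the Jurkat libraries, and the downstream part of the gene is nearly empty except in Jurkat replicate 2.

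Along the cluster, coverage was uneven. In bins of 10 kb the most covered was chr2:239260001-239270000 in all 3 libraries, with 98.0%, 94.5% and 78.2%, and it contains the internal start at 134 kb. In 15 of 23 bins 6T-CEM was below both Jurkat libraries, and in 1 it was above both. Of 30173 bins of the genome with covered bases in any library, 10.5% were below and 50.5% above. More than 50% of the bin was covered in 6 bins of Jurkat replicate 1, 12 of Jurkat replicate 2 and 3 of 6T-CEM. From the most upstream start to the first internal start (103 kb) the covered share was 35.0%, 54.1% and 29.0%. Between the internal starts (31.0 kb) it was 55.4%, 63.2% and 29.4%, and from the last internal start to the cluster border (87.5 kb) it was 41.0%, 52.1% and 36.1%. The 6T-CEM share was lowest of the 3 libraries in each stretch, and its distance from the Jurkat shares was widest between the internal starts.

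At the most upstream start of HDAC4 the peak had a fold of 8.20 in Jurkat replicate 1, 3.95 in Jurkat replicate 2 and 7.76 in 6T-CEM, so the Jurkat replicates differed more from each other than replicate 1 did from 6T-CEM. Its width was 1788, 2193 and 942 bases. The peak over the internal start at 127 kb was 7704, 8179 and 3837 bases wide with folds of 4.85, 6.94 and 5.62. That over the internal start at 134 kb was 7825, 8877 and 3405 bases wide with folds of 6.16, 11.2 and 7.32. At both internal starts the 6T-CEM peak was narrower than both Jurkat peaks, while its fold lay between theirs. The internal start at 128 kb lay under a peak in both Jurkat libraries, and 6T-CEM had peaks within 1 kb only. That at 103 kb lay under a peak in Jurkat replicate 1 (fold 6.85) and 6T-CEM (fold 4.72), and Jurkat replicate 2 had peaks within 1 kb only.

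Joining overlapping peaks gave 81 regions in the cluster. Of these, 35 had peaks in all 3 libraries, 16 in both Jurkat libraries only, 18 in Jurkat replicate 2 only, 5 in Jurkat replicate 2 and 6T-CEM, 3 in Jurkat replicate 1 only, 3 in 6T-CEM only, and 1 in Jurkat replicate 1 and 6T-CEM. In the same order, these classes made up 17.4%, 3.20%, 23.9%, 14.5%, 5.39%, 32.2% and 3.32% of the 49528 joined regions of the lists. By bases, 22.6% of the cluster lay under peaks of all 3 libraries, 10.2% under both Jurkat libraries and not 6T-CEM, and 1.74% under 6T-CEM alone. The 16 regions of both Jurkat libraries had median folds of 5.19 and 5.62. Several of them lay side by side: between 107 kb and 112 kb downstream of the most upstream start 4 neighbouring regions had Jurkat peaks without a 6T-CEM peak, apart from a region of Jurkat replicate 2 alone in their midst. Another 3 lay between 3 kb and 6.73 kb downstream of that start. The 3 regions of 6T-CEM alone had folds of 3.71, 3.79 and 4.13, below the 6T-CEM median of the cluster.

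Overlap between libraries inside the cluster is given beside that of the whole lists, as a description of a stretch chosen for its dense peaks. Of the Jurkat replicate 1 peaks, 94.0% met a peak of Jurkat replicate 2, against 71.6% of the list. Of the same peaks, 68.7% met a 6T-CEM peak, against 72.0%. Of the Jurkat replicate 2 peaks, 71.8% met a peak of replicate 1, against 35.8%, and 57.6% met a 6T-CEM peak, against 57.1%. Of the 6T-CEM peaks, 83.8% met Jurkat replicate 1 and 94.1% met Jurkat replicate 2, against 32.1% and 49.2%. The cluster was densely covered (39.0%, 53.0% and 31.0% of its bases), and the part of that coverage in these rates was not tested.

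In the 35 regions with peaks in every library, the highest fold had a median of 6.08 in Jurkat replicate 1, 6.22 in Jurkat replicate 2 and 4.88 in 6T-CEM. Over all 8620 regions of the lists with peaks in every library these medians were 5.68, 5.10 and 5.48. The fold was lowest in 6T-CEM in 22 of the 35 regions and highest there in 3, and over all such regions it was lowest there in 29.8% and highest in 35.6%. Jurkat replicate 1 exceeded 6T-CEM in 28 regions, Jurkat replicate 2 exceeded 6T-CEM in 26, and Jurkat replicate 1 exceeded replicate 2 in 16. Folds are not scaled between lists. As a description across these regions, which share a gene and are not independent, the Spearman correlation of folds was 0.59 between Jurkat replicate 1 and 6T-CEM, 0.23 between Jurkat replicate 2 and 6T-CEM, and 0.11 between the Jurkat replicates. The order of peak heights along the gene was thus no more alike between the Jurkat replicates than between the lines.

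The highest peak of Jurkat replicate 1 and that of 6T-CEM lay at the same place, 170 kb downstream of the most upstream start. They were at chr2:239230397-239233120 with a fold of 12.5 and at chr2:239231076-239232975 with 8.78, and Jurkat replicate 2 had its second highest peak there with 11.5. The highest peak of Jurkat replicate 2, at chr2:239202023-239205405 with a fold of 13.2, lay in a region where Jurkat replicate 1 reached 6.24 and 6T-CEM 5.13. A place about 73 kb downstream had folds of 11.5, 9.95 and 8.0 and a width of 6319 bases in Jurkat replicate 1 and 5475 in Jurkat replicate 2. Among noncoding genes of the locus, the antisense RNAs HDAC4-AS1 (at the most upstream start) and HDAC4-AS2 had peaks over part of their length in all 3 libraries. MIR2467 lay under a peak in both Jurkat libraries and MIR4269 in Jurkat replicate 2 only.

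**Figure D3:**
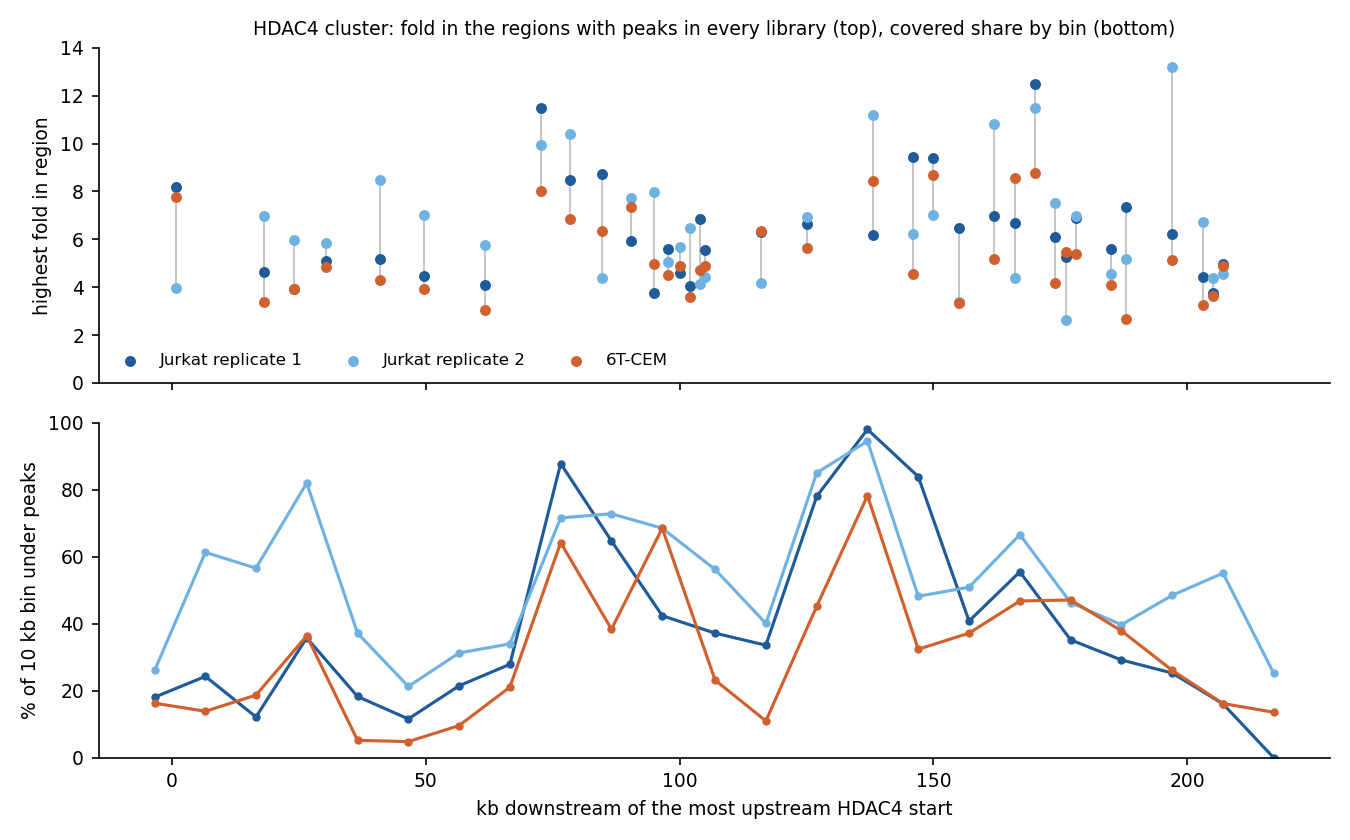
Top: highest authors' fold in each of the 35 HDAC4 regions with peaks in every library, against distance in kb downstream of the most upstream start, with a grey line from the lowest to the highest library. Bottom: percent of each 10 kb bin under peaks. The 6T-CEM point is the lowest in 22 regions, and the most covered bin is the same in all 3 libraries (98.0%, 94.5% and 78.2%).

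The genes most like HDAC4 in covered bases, by the distance between their 3 log2 values (covered bases plus 500), were GALNT2 (distance 1.04), FAM53B (1.16) and MSI2 (1.17). MSI2, an RNA-binding protein gene of blood stem cells, had 42792, 100587 and 80783 covered bases. GALNT2 had 52227, 87740 and 67610, and FAM53B had 47596, 90914 and 97393. In each of these, unlike HDAC4, 6T-CEM was above Jurkat replicate 1.

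HDAC7 (chr12:47782722-47821344, minus strand) had its most covered bases in 6T-CEM, where HDAC4 had its fewest. At both genes Jurkat replicate 2 was above replicate 1. HDAC7 had 9, 25 and 23 peaks over 11068, 26042 and 33683 bases, a log2 ratio of 0.84 with a Jurkat replicate difference of -1.20. In its body 13.7%, 43.0% and 58.8% of the bases were covered. 6T-CEM was highest, but the Jurkat replicates lay farther apart than the lines, and Jurkat replicate 2 resembled 6T-CEM more than its replicate. Of 15 regions in the body, 3 had peaks in all libraries, 9 in Jurkat replicate 2 and 6T-CEM, 2 in 6T-CEM only, and 1 in Jurkat replicate 2 only. Of the joined regions of the lists, 17.4%, 14.5%, 32.2% and 23.9% were of these classes, and the list of Jurkat replicate 1 is the shortest.

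The peak over the HDAC7 start was 2852 bases wide with a fold of 3.75 in Jurkat replicate 1, 3967 bases with 7.51 in Jurkat replicate 2, and 4580 bases with 8.52 in 6T-CEM. It covered the whole promoter stretch shown above in each library. About 12 kb upstream of the start, in a stretch without a protein-coding gene, a further peak had folds of 7.01, 3.72 and 7.81 and a width of 2941, 2067 and 4660 bases. Here Jurkat replicate 1 and 6T-CEM were alike in fold and Jurkat replicate 2 was lower. Under the same 6T-CEM peak Jurkat replicate 2 had a further peak of 1216 bases with a fold of 4.1. Jurkat replicate 1 also had another there, of 382 bases with a fold of 3.1. SLC48A1, a haem transporter gene that adjoins the downstream end of HDAC7, carried 1958, 4227 and 3974 of the window's bases, and the upstream neighbour VDR carried none.

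HDAC5 (chr17:44076753-44123641), a further MEF2-binding class IIa gene, had 5, 15 and 13 peaks over 4577, 14954 and 10059 bases, with a log2 ratio of 0.04 and a Jurkat replicate difference of -1.61. With the 16159 top peaks of each list HDAC5 had 4577, 8263 and 2855 bases, so 6T-CEM fell below both Jurkat libraries (log2 ratio -1.04). In its body 1809, 11192 and 7604 bases were covered. The difference between the Jurkat replicates was the widest among the class IIa genes with peaks. The highest peak of the body lay at chr17:44095246-44096714 in Jurkat replicate 2, with folds of 7.75, 11.3 and 7.11 in the order of the libraries. A second peak followed it within 1 kb in every library, with folds of 6.99, 6.39 and 3.52. These 2 regions were the only ones of 15 in the body with peaks in all 3 libraries, and 5 were in Jurkat replicate 2 only, 4 in 6T-CEM only and 4 in both of these. No library had a peak within 1 kb of the higher-coordinate end of the gene. Peaks over the flanking LSM12, G6PC3 and HROB were present in all 3 libraries.

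HDAC9 (chr7:18086825-19002416, plus strand) had no peak in any library over its body of 916 kb or the flanks. The nearest peak lay 146 kb away in each library, with folds of 5.15, 2.52 and 3.22. The list of HDAC9 starts included internal starts 409 kb to 422 kb downstream of that shown above, and none of them had a peak. By summed covered bases the 4 class IIa genes thus ranged from the top rank of a list (HDAC4) to no covered base (HDAC9).

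Of the other genes, HDAC10 (chr22:50245183-50251265, minus strand) had 1, 5 and 6 peaks over 1808, 3756 and 4716 bases, a log2 ratio of 0.67 with a Jurkat replicate difference of -0.88. Part of the 6T-CEM bases lay over TUBGCP6, a gene of the gamma-tubulin complex (1805 bases), and MAPK11, a p38 kinase gene (1006 bases). By nearest peaks HDAC10 had 1808, 3271 and 2190 bases, and 6T-CEM lay within the Jurkat range. Beside its start Jurkat replicate 2 had peaks with folds of 4.54 and 3.61, 6T-CEM had a peak with 2.34, which stood at percentile 1.33 of its list, and Jurkat replicate 1 had none. The peak at the downstream end of HDAC10 was called in every library, with folds of 3.40, 2.92 and 3.02.

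HDAC11 (chr3:13480306-13506416, plus strand) had 1, 11 and 0 peaks in its window, over 553, 11661 and 0 bases. In 10.7% of the genes with covered bases, a Jurkat library had some and 6T-CEM had none. The Jurkat signal came almost wholly from replicate 2, so the lower value of 6T-CEM rests on that library. The widest peak of replicate 2, 3559 bases with a fold of 6.98, began just beyond the downstream end of the gene, and 5 others lay in the body with folds of 2.43 to 5.15. The single peak of Jurkat replicate 1, with a fold of 5.27, coincided with a peak of replicate 2 (fold 3.84). The nearest 6T-CEM peak was 29.3 kb from the gene, with a fold of 2.82.

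**Figure D4:**
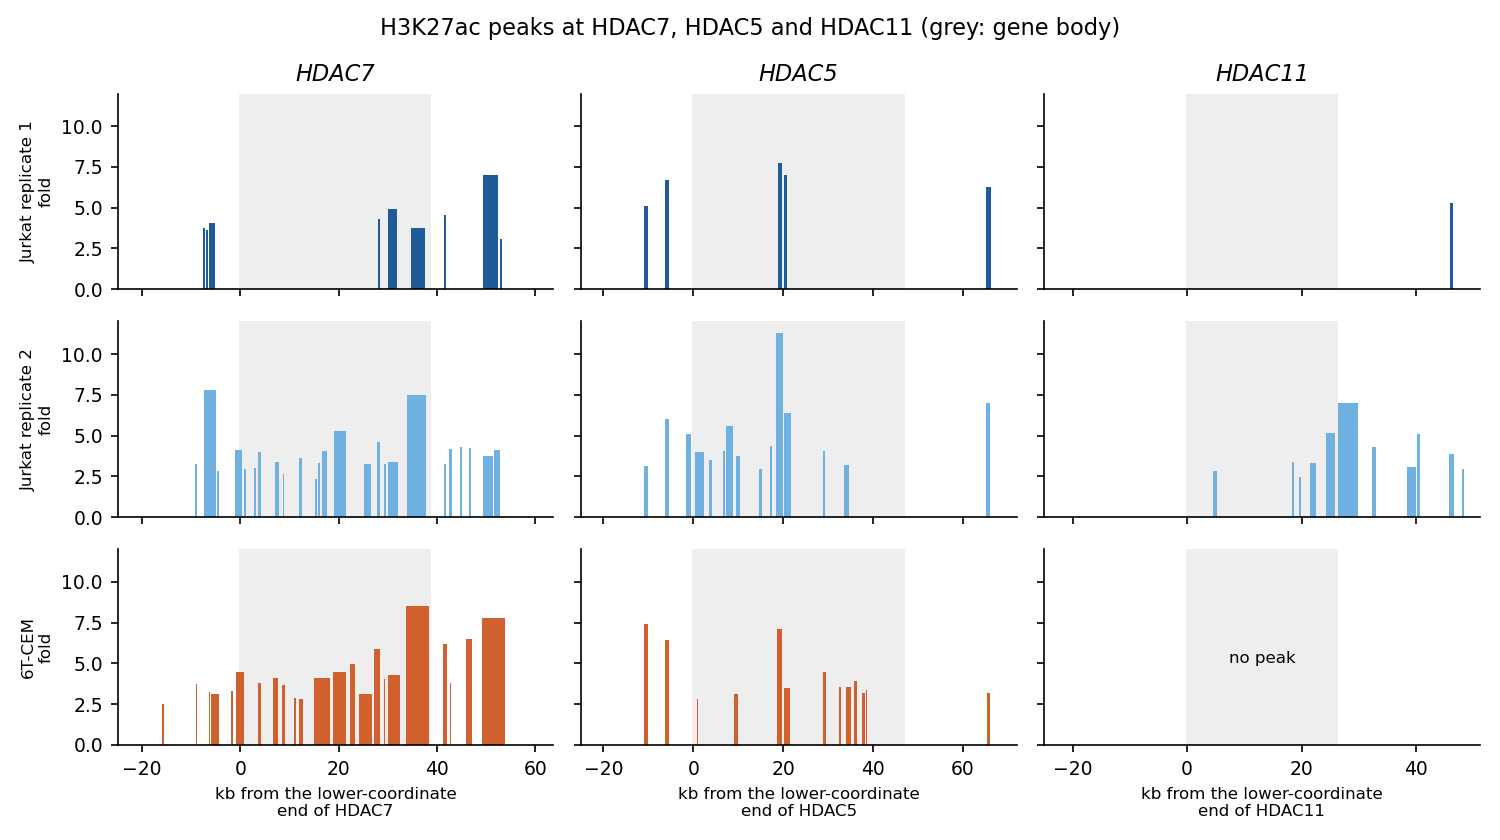
Peaks in the windows of HDAC7, HDAC5 and HDAC11, 1 row per library, against distance in kb from the lower-coordinate end of each gene (grey: gene body). Bar height is the authors' fold. HDAC7 is densely covered in Jurkat replicate 2 and 6T-CEM, HDAC5 shares its highest body peak across libraries, and HDAC11 is covered mainly in Jurkat replicate 2 and has no peak in 6T-CEM.

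The members of the family left out by the choice of genes were also read. HDAC6, the tubulin deacetylase gene, had 1167, 507 and 0 covered bases, and HDAC8 had none in any library.

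Genes that act with or against the deacetylases were read from fixed lists, by the same covered bases. Of all protein-coding genes with covered bases, 50.5% were above and 15.8% below both Jurkat libraries. Of 29 genes of the class I corepressor complexes 15 were above both Jurkat libraries in 6T-CEM, 4 below and 9 within their range, and TBL1X had none. Their median log2 ratio was 0.48, beside 0.31 over all genes. SAP30 of the Sin3 complex had 0, 0 and 1170, and GATAD2B of NuRD had 3086, 4579 and 2476. RBBP7, a histone-binding subunit, had 509, 303 and 0.

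Of 18 partners and kinases of the class IIa proteins 8 were above both Jurkat libraries, 5 below and 4 within, with a median log2 ratio of -0.05, and PRKD1 had none. MEF2C, whose product is a transcription factor that HDAC4 and its relatives bind, had 0, 0 and 2256 bases. The kinase genes PRKD2 and CAMK4, whose products phosphorylate class IIa proteins, had 5431, 7877 and 15251 bases and 6023, 4340 and 1779 bases. ANKRA2, whose product binds HDAC4, had 1289, 756 and 0. Partners of the same proteins thus stood on both sides of the Jurkat values.

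Of 11 histone acetyltransferase genes 5 were above, 3 below and 3 within, with a median of 0.36. KAT6B had 0, 372 and 8918 bases, KAT2B 0, 0 and 2331, and KAT5 3319, 3542 and 2721. Of the 7 sirtuin genes, which encode the NAD-dependent deacetylases, 3 were above, 1 below and 3 within, with a median of 0.10. SIRT2 had 2023, 5730 and 7166 bases, SIRT7 had 3816, 7601 and 9635, and SIRT6 had 856, 1549 and 565. The share above both Jurkat libraries in these lists was near that of all genes. The share below was near the 15.8% of all genes for the class I complexes and the sirtuins. It was higher for the class IIa partners (5 of 17 genes with covered bases) and the acetyltransferases (3 of 11). These counts are small and were not tested.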

How the data were processed

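H3K27ac was profiled in Jurkat (2 libraries) and 6T-CEM (1 library). Sonicated nuclei and isolation by antibody are stated per the labels' protocols, while the description of the series says CUT&Tag. Bowtie2 2.2.5, MACS2 2.2.7 and build hg38 were used, per the submitters' processing notes. Options and the use of IgG controls are not given in the sources used here. Each deposited list gives per peak a fold enrichment (a ratio), −log10 p- and q-values and a score, all values of the authors and not recalculated. The lists hold no read counts, so depth is unknown and nothing was scaled to it.

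The genes and lists were chosen with earlier results of these data known. Named were the 9 genes, neighbours in their windows with a peak, HDAC6, HDAC8, genes of fixed lists, and the genes most like HDAC4; 1 gene that the rule names is not reported here. Peaks on chromosomes 1 to 22 and X were used. Overlap meant 1 shared base, and covered bases were summed over the gene body and 25 kb on each side. Gene positions and listed starts were from RefSeq (GRCh38.p14). HDAC5 had no listed start, so its annotated ends were used. Python 3.11.15 with pandas 2.3.3, NumPy 2.4.6, SciPy 1.17.1 and matplotlib 3.10.9 was used, and the scripts were checked on simulated peaks. No p-value was computed, because 6T-CEM has 1 library.

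Alternatives were −log10 q of 5 or more, equal list length (the 16159 peaks of highest q rank per list), flanks of 0 and 10 kb, nearest peaks only, starts within 2.5 kb, an overlap of 50% of the shorter peak, and each Jurkat library left out.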

Additional observations from a re-analysis of the deposited data

How the results depend on the processing

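Results that moved did so mainly with list length and flank. With the 16159 top peaks of each list, the number of genes with fewer covered bases in 6T-CEM than in both Jurkat libraries rose from 3 to 5 (HDAC5 and HDAC10 joined), the HDAC4 regions with peaks in all libraries fell to 18 from 35, and the log2 ratio of the HDAC4 cluster was -1.20 in place of -0.57 (HDAC4 window: -1.19). With −log10 q of 5 or more, the shared regions numbered 23. Without flanks 1 gene was below both Jurkat libraries, and with 10 kb flanks 1 was above and 1 below. HDAC10 turned from 0.67 to -0.50 (−log10 q of 5 or more), -2.23 (equal list length, where 6T-CEM had no covered base), -0.22 (no flanks) and -0.18 (nearest peaks). HDAC3 turned from -0.76 to 0.69 (no flanks) and 0.17 (nearest peaks). Beyond the construction of each setting, the cause was not tested. HDAC4 stayed below both Jurkat libraries at equal list length and with nearest peaks. Leaving out a Jurkat library left no Jurkat range, so no gene with covered bases could lie within it. The counts were then 4 above and 4 below in either case. Shared regions needed peaks only in the libraries kept, a looser rule than for the 35, and numbered 41 to 45. Cluster ratios were -0.77 to -0.33. The genes above and below were not the same in both cases. HDAC5 moved to -0.55 (without Jurkat replicate 1) or 1.06 (without replicate 2), and HDAC2 to 0.16 or -0.17. No paired analysis was possible because the replicate numbers occur in 1 cell line only. Depth is unknown, so a missing peak cannot be told from a peak not called.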
